A study of Mus musculus with 18 samples.

Results

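A set of 10 genes of the prostaglandin and leukotriene pathway was followed in mouse bone-marrow-derived macrophages. They were named by symbol, and 10 of 10 were among the 11164 genes with deposited values. The members are Pla2g4a, Ptgs1, Ptgs2, Ptges, Hpgd, Ptger2, Ptger4, Alox5, Alox5ap and Lta4h. Macrophages were grown from bone marrow of C57BL/6J mice that were wild type (WT), BAFF KO or APRIL KO, and were left unstimulated or given lipopolysaccharide (LPS, a bacterial cell wall component) at 10 ng/ml for 4 h. All samples carry the label of preterm birth and day 16 of gestation. BAFF (Tnfsf13b) and APRIL (Tnfsf13) are cytokines of the TNF superfamily that act on B cells. The deposited columns are labelled as numbered replicates and come in pairs that share a library number. The labels do not say what the 2 columns of a pair are. Each pair was averaged and treated here as 1 library. On this basis each genotype had 1 unstimulated library and 2 LPS libraries, so there were 9 libraries in 6 groups. The labels do not say whether libraries of a group came from separate mice or cultures, nor how the knockout alleles were made, so the spread behind each p-value may be technical.

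Both mediator families start from arachidonic acid, which cytosolic phospholipase A2 (Pla2g4a) cuts from membrane lipids. The cyclooxygenases Ptgs1 and Ptgs2 turn it into prostaglandin H, the terminal synthase Ptges makes prostaglandin E from that, and the dehydrogenase Hpgd inactivates prostaglandin E. Ptger2 and Ptger4 are receptors for prostaglandin E that raise cyclic AMP. In the other branch, 5-lipoxygenase (Alox5), helped by its membrane partner Alox5ap, makes leukotriene A, and Lta4h converts it to leukotriene B, which attracts neutrophils. Ptgs2 and Ptges are known as inducible enzymes of stimulated macrophages, and prostaglandins are known to promote cervical ripening and contraction of the uterus in labour.

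The start regions of both cyclooxygenase genes and of the other members that rose with LPS are shown because these genes moved in different directions. Each sequence covers 250 bases before and 50 bases after the RefSeq start in GRCm38.p6, in lower case with motif matches in capitals. The windows are chr1:150099781-150100080 (+) for Ptgs2, chr2:36230176-36230475 (+) for Ptgs1, chr2:30903248-30903547 (-) for Ptges and chr1:149961241-149961540 (-) for Pla2g4a.
Ptgs2: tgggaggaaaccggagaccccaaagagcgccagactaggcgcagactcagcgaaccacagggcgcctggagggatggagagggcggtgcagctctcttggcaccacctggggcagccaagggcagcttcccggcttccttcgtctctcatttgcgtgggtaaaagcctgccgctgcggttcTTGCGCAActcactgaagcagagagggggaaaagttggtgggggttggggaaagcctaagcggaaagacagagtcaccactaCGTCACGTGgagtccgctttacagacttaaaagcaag
Ptgs1: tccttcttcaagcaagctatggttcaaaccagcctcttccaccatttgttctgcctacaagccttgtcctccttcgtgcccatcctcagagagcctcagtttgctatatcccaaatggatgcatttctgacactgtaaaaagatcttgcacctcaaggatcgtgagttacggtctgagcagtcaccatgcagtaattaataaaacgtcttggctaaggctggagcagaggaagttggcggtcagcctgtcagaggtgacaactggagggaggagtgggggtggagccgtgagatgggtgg
Ptges: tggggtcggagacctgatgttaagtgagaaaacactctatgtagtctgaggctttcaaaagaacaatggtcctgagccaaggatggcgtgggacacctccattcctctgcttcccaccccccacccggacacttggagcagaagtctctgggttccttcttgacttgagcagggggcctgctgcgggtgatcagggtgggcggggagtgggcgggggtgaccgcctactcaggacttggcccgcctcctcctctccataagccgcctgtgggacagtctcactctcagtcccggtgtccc
Pla2g4a: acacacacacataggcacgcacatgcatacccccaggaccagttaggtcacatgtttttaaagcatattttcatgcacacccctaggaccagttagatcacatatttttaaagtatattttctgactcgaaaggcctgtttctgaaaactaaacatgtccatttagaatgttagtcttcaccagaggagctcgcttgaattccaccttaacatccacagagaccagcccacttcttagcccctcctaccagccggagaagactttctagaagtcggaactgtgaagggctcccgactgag

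A set of 6 motifs was searched on both strands, namely the cyclic AMP response element core (TGACG), a C/EBP site (TTGCNNAA), a TATA box (TATAAA), an E-box (CACGTG), and, by their consensus, NF-kB and the interferon-stimulated response element. In the Ptgs2 window, TTGCGCAA lies at -69 to -62 from the start (counted as 0). A cyclic AMP core on the opposite strand, CGTCA, lies at 13 to 17 and overlaps the E-box at 16 to 21. None of the 6 motifs was present in the Ptgs1, Ptges and printed Pla2g4a windows. Of 32851 windows of the same length, 20.8% held the cyclic AMP core, 10.8% the C/EBP site, 7.15% the E-box, 13.6% the TATA box, 8.46% the NF-kB consensus and 3.44% the interferon element. A match is a run of letters and not a shown site. RefSeq windows were at hand for 9 of the 10 members. A second Pla2g4a window, at chr1:149922390-149922689 (-) and not printed, held a TATA box on the opposite strand at -200 to -195. Hpgd held a TATA box at 4 to 9 and Ptger2 a C/EBP match at 39 to 46.

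Pla2g4a and Ptgs2 are neighbours on chromosome 1 (mm10, GENCODE M21). Pla2g4a covers 149829618 to 149961290 on the minus strand and Ptgs2 covers 150100031 to 150108227 on the plus strand, with 138.7 kb and 0 protein-coding genes between them. Ptgs1 (36230426 to 36252272) and Ptges (30889471 to 30929863) share chromosome 2 but are 5300.6 kb apart, with 87 protein-coding genes between them. Ptges is on the minus strand, so this gene model starts at 30929863. The printed Ptges window is set by a RefSeq start that lies inside the model, so the 2 starts differ. The exons of Ptger4 overlap those of Ttc33 on the opposite strand, and antisense or poorly supported gene models overlap exons of Ptgs1, Ptger2 and Alox5ap. Whether the libraries keep strand is unclear, so reads of overlapping pairs may not be told apart.

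Libraries held 5121833 to 6020780 reads in the listed genes. Values are RPKM, that is reads per gene length and per library depth. Tnfsf13, which encodes APRIL, had 0 reads in 3 of 3 APRIL KO libraries and 119 to 486 in the other libraries; the gene targeted in BAFF KO was not analysed here, which leaves that label unchecked by its target. All 8 macrophage markers were present, with summed levels of 4527 to 7603 RPKM over libraries. Neutrophil markers (11 listed) summed to 3132 RPKM in unstimulated WT, 5859 in BAFF KO and 2795 in APRIL KO. Skeletal muscle markers summed to 201.1 to 297.8 RPKM in the 3 WT libraries and to 21.6 to 53.5 in the 6 knockout libraries. Fibroblast markers summed to 13.97 and 432.2 RPKM in the APRIL KO LPS libraries.

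The members spanned a wide range of levels before stimulation. Alox5ap was the most abundant, with 191.5, 242.9 and 176.3 RPKM in the unstimulated WT, BAFF KO and APRIL KO libraries. Lta4h followed at 101.8, 123.2 and 103.5 RPKM. Both stood above the 94th percentile of listed genes in each genotype. Ptgs1, Hpgd, Alox5 and Pla2g4a lay between 3.22 and 9.01 RPKM. Ptgs2, Ptges, Ptger2 and Ptger4 had 0.349 to 3.19 RPKM, and their order among themselves differed between genotypes. All 10 members passed the filter of at least 1 RPKM in 1 group, but Ptger2 did so only through unstimulated APRIL KO, at 1.196 RPKM, and Ptger4 through unstimulated APRIL KO (1.32) and BAFF KO with LPS (1.024).

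With LPS, Pla2g4a, Ptgs2 and Ptges rose, while the other cyclooxygenase, Ptgs1, and the members Hpgd, Alox5, Alox5ap and Lta4h fell. With genotypes averaged, 3 of 10 members were called higher and 6 lower, counting Ptger2, while 18.1% of the 9934 genes tested were higher and 62.1% lower (limma on log2(RPKM + 1), Benjamini-Hochberg adjusted p below 0.05). The median member differed by -0.63 and the median gene by -0.44 on the log2 scale. RPKM is relative to each library's reads: after median ratio scaling the median gene stood at -0.02, 31.0% of genes were higher and 30.1% lower, and 3 members were higher and 5 lower. These counts are close to the shares of all genes, apart from the 5 lower members after scaling, and nothing about the set is read from them. Within single genotypes, 3 members rose and 5 fell in each. The shares of all genes were 13.7% higher and 46.7% lower in WT, 16.0% and 43.8% in BAFF KO, and 14.4% and 47.8% in APRIL KO.

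**Figure D1:**
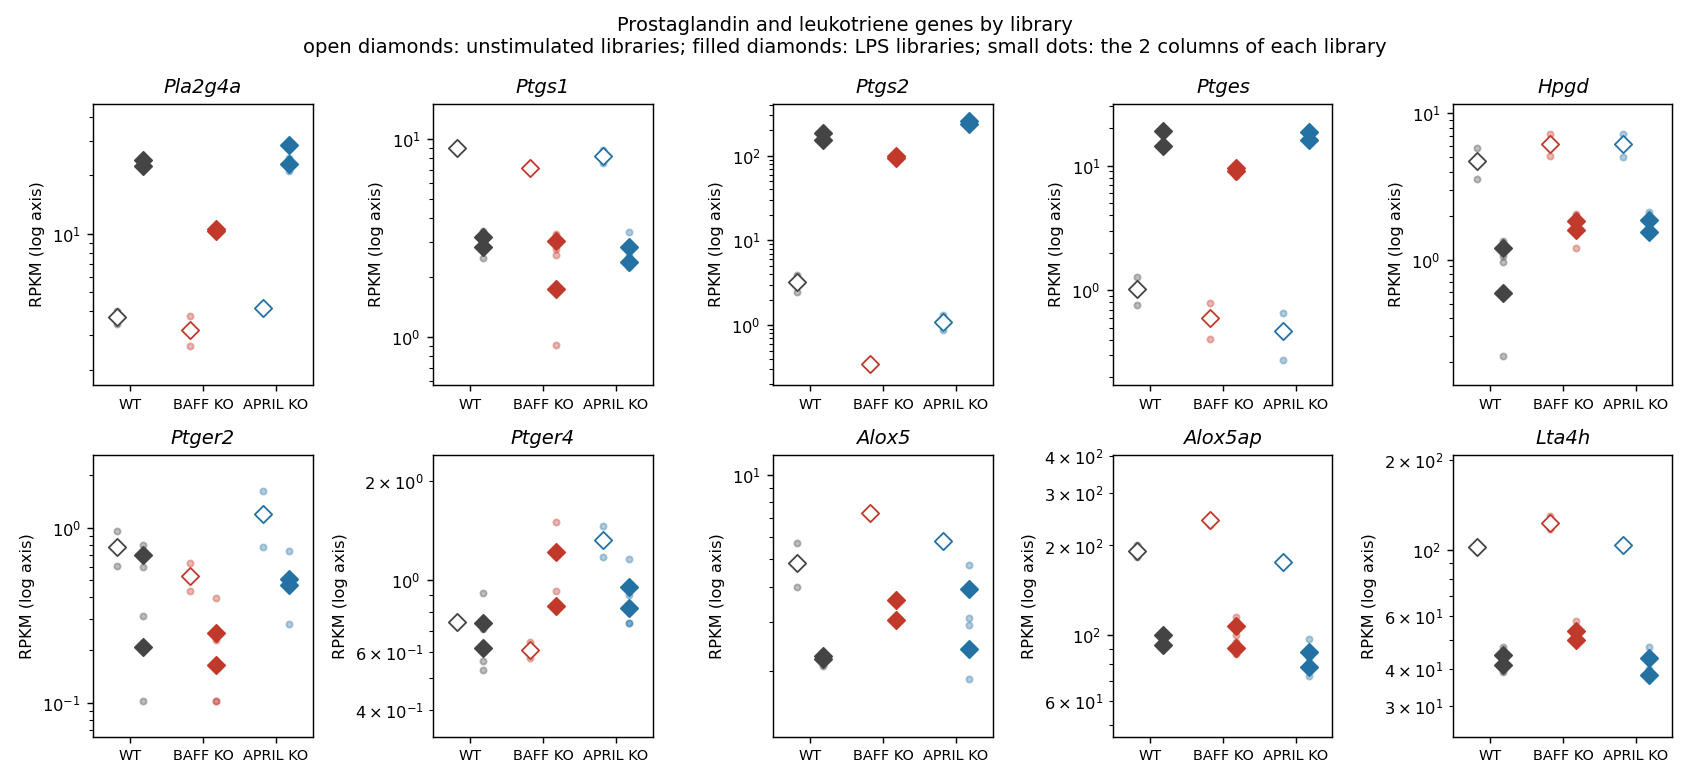
RPKM (log axis) of the 10 genes by genotype; open diamonds are unstimulated libraries, filled diamonds LPS libraries, and small dots the 2 columns of each library. Ptgs2 sits between 93.6 and 258.2 RPKM in the 6 LPS libraries, against 0.349 to 3.19 in the 3 unstimulated ones, while Alox5ap and Lta4h are lower in each LPS library than in each unstimulated one.

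Pla2g4a, the phospholipase at the head of the pathway, stood at 3.73 RPKM in unstimulated WT and at 22.5 and 24.0 in the WT LPS libraries. In BAFF KO it went from 3.22 to 10.6 and 10.3 RPKM. In APRIL KO it went from 4.16 to 22.8 and 28.7 RPKM. LPS libraries were above unstimulated ones in each genotype, and the 2 BAFF KO LPS libraries were the lowest of the 6. The log2 change was 2.36 in WT (SE 0.17, adjusted p = 2.6e-05), 1.44 in BAFF KO (SE 0.17, adjusted p = 0.00032) and 2.37 in APRIL KO (SE 0.17, adjusted p = 2.4e-05) by limma.

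Ptgs2, the inducible cyclooxygenase, had the largest change among the members. It stood at 3.19 RPKM in unstimulated WT and at 186.6 and 154.1 in WT with LPS. In BAFF KO it went from 0.349 to 93.6 and 100.3 RPKM. In APRIL KO it went from 1.09 to 258.2 and 235.9 RPKM. The 3 genotypes did not overlap under LPS, with BAFF KO lowest and APRIL KO highest. On the log2(RPKM + 1) scale, its change by limma was 5.35 in WT (SE 0.14, adjusted p = 1.2e-07). It was 6.18 in BAFF KO (SE 0.14, adjusted p = 6.7e-08) and 6.89 in APRIL KO (SE 0.14, adjusted p = 5.3e-08). As a ratio of mean RPKM, the rise was 53.4-fold in WT, 278-fold in BAFF KO and 225.7-fold in APRIL KO. The order of the knockouts thus depended on the added 1, from 6 unstimulated reads in BAFF KO and 22 in APRIL KO. The rank of Ptgs2 among listed genes went from the 33.9th to the 96.3rd percentile in WT, from the 8.04th to the 93.9th in BAFF KO and from the 17.5th to the 97.6th in APRIL KO.

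Ptgs1, the cyclooxygenase usually described as constitutive, moved the other way. Its levels were 9.01, 7.16 and 8.19 RPKM in unstimulated WT, BAFF KO and APRIL KO. With LPS they were 2.84 and 3.20 in WT, 1.76 and 3.05 in BAFF KO, and 2.83 and 2.40 in APRIL KO. Every LPS library was below every unstimulated one. Under LPS, BAFF KO overlapped both other genotypes. The APRIL KO libraries were just below the WT libraries, with overlapping columns. The averaged log2 change was -1.32 (SE 0.15, adjusted p = 8.6e-05, limma), and -0.88 after median ratio scaling (adjusted p = 0.0012).

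The ratio of Ptgs2 to Ptgs1 per length therefore crossed 1 in each genotype. It was 0.354 in unstimulated WT, 0.0488 in BAFF KO and 0.134 in APRIL KO. Under LPS it was 65.8 and 48.2 in WT, 53.3 and 32.8 in BAFF KO, and 91.1 and 98.3 in APRIL KO. This ratio was highest in the APRIL KO LPS libraries, and WT and BAFF KO overlapped.

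Ptges, the inducible prostaglandin E synthase, had 18, 13 and 10 reads in the unstimulated WT, BAFF KO and APRIL KO libraries, or 1.02, 0.596 and 0.469 RPKM. With LPS it reached 18.8 and 14.2 RPKM in WT, 9.001 and 9.62 in BAFF KO, and 16.1 and 18.5 in APRIL KO. BAFF KO lay below the other genotypes, which overlapped. The averaged log2 change was 3.14 (SE 0.12, adjusted p = 2.5e-07, limma).

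Hpgd, which inactivates prostaglandin E, fell. It stood at 4.71, 6.13 and 6.17 RPKM in unstimulated WT, BAFF KO and APRIL KO. With LPS it was 0.594 and 1.204 in WT (5 and 9 reads), 1.85 and 1.604 in BAFF KO, and 1.56 and 1.86 in APRIL KO. The averaged log2 change was -1.47 (SE 0.14, adjusted p = 3.4e-05, limma), and -1.07 after scaling (adjusted p = 0.00032). The ratio of Ptges to Hpgd went from 0.0760 to 0.216 without stimulation to 4.87 to 31.6 with LPS, lowest in the BAFF KO LPS libraries.

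**Figure D2:**
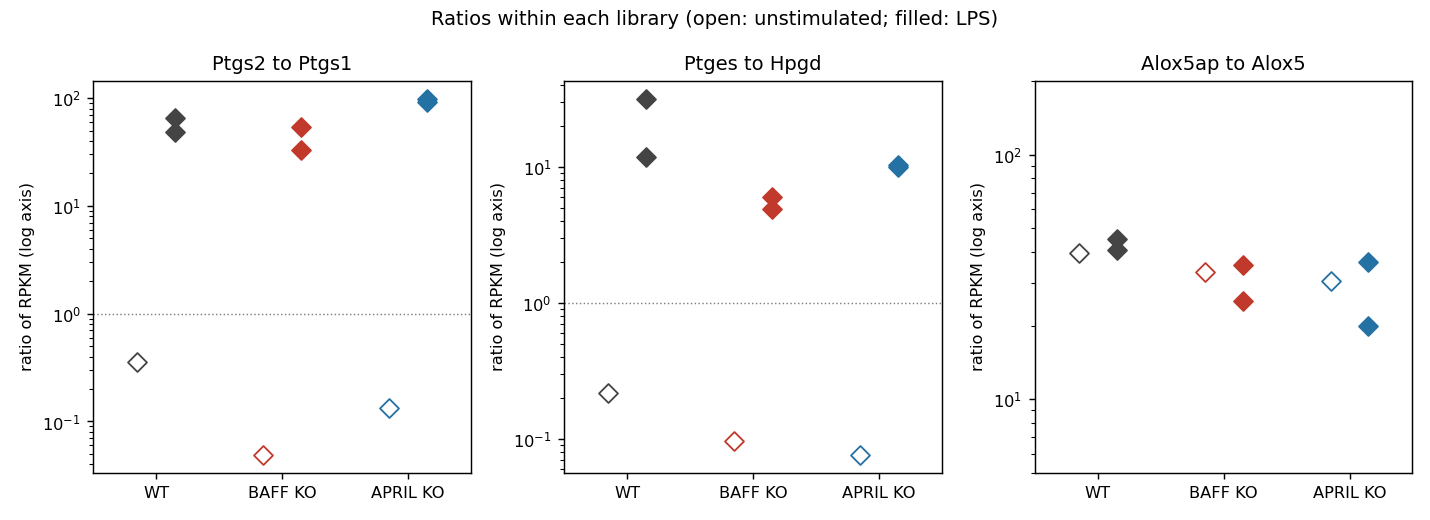
Ratio of RPKM within each library (log axis) for 3 pairs of genes, with open diamonds for unstimulated and filled diamonds for LPS libraries and a dotted line at 1. Ptgs2 to Ptgs1 and Ptges to Hpgd are below 1 without LPS and above 1 with it in each genotype, while Alox5ap to Alox5 stays between 19.9 and 45.2.

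The prostaglandin E receptors were scarce. Ptger2 had 0.779, 0.531 and 1.196 RPKM in unstimulated WT, BAFF KO and APRIL KO and 0.166 to 0.698 in the LPS libraries, from 2 to 11 reads each. Its averaged log2 difference was -0.40 (SE 0.13, adjusted p = 0.019, limma), and -0.21 after median ratio scaling (adjusted p = 0.22). Since it entered the test only through an unstimulated group in which it was high, a lower value with LPS was favoured by the filter, and no fall is read from it. It also missed the threshold in each single genotype, where adjusted p ranged from 0.057 to 0.25. Ptger4 had 0.743, 0.611 and 1.32 RPKM without stimulation and 0.618 to 1.22 with LPS. Its averaged log2 difference was -0.01 (95% interval -0.26 to 0.24, adjusted p = 0.93, limma).

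The 3 leukotriene members were lower with LPS, as were 62.1% of all genes. Of 5 further genes of leukotriene enzymes and transport tested, 3 were lower and 0 higher, or 2 lower and 1 higher after scaling. Alox5ap, the 5-lipoxygenase partner, stood at 92.3 and 100.1 RPKM in the WT LPS libraries, 107.5 and 90.5 in BAFF KO, and 78.3 and 87.5 in APRIL KO, each below every unstimulated library. Lta4h, the leukotriene A hydrolase, stood at 41.1 and 44.4 RPKM in WT with LPS, 49.7 and 53.5 in BAFF KO, and 38.1 and 43.5 in APRIL KO, also below every unstimulated library. Alox5, the lipoxygenase itself, went from 4.85 to 2.27 and 2.21 RPKM in WT, from 7.32 to 3.05 and 3.57 in BAFF KO, and from 5.80 to 3.93 and 2.40 in APRIL KO.

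Averaged log2 changes by limma were -1.12 for Alox5ap (SE 0.08, adjusted p = 6.8e-06), -1.27 for Lta4h (SE 0.07, adjusted p = 2e-06) and -0.85 for Alox5 (SE 0.14, adjusted p = 0.00083). After median ratio scaling they were -0.60, -0.75 and -0.42, with adjusted p of 0.0003, 3.1e-05 and 0.037. In single genotypes the Alox5 call was lost after scaling, with adjusted p of 0.22 in WT, 0.12 in BAFF KO and 0.39 in APRIL KO. It was also lost in WT without either WT LPS library (adjusted p 0.052 and 0.056), in BAFF KO without LPS library 1 (0.052) and in APRIL KO without LPS library 2 (0.12). Neutrophil markers, from cells that use this branch, fell with LPS in 10 of 11 by the averaged test (7 lower and 2 higher after median ratio scaling), from summed levels of 2795 to 5859 RPKM to 1390 to 2746. Of all genes 62.1% were lower, or 30.1% after scaling. Of 8 macrophage markers 4 were lower and 2 higher, or 2 lower and 4 higher after scaling. Their summed levels went from 6904 to 7603 RPKM to 4527 to 5211. The part of these markers in the result was not tested. In bulk samples, fewer cells of a type and less RNA per cell cannot be told apart.

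**Figure D3:**
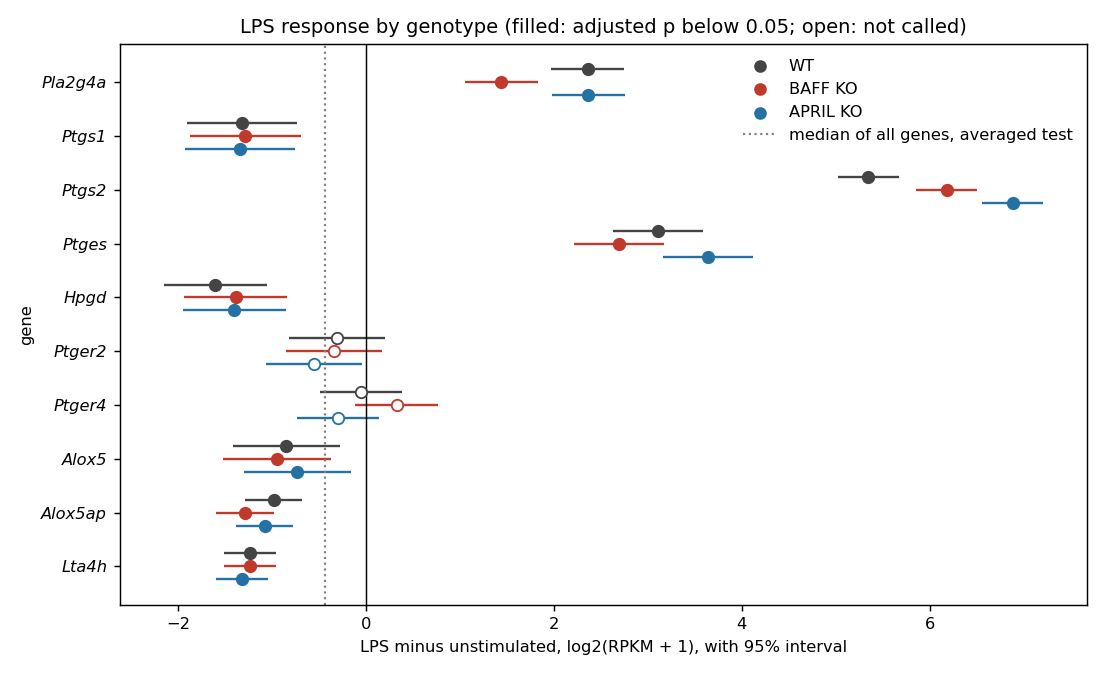
LPS minus unstimulated on the log2(RPKM + 1) scale with 95% intervals, for each gene and genotype; filled points passed the adjusted threshold, open points did not, and the dotted line is the median of all genes. Pla2g4a, Ptgs2 and Ptges lie right of 0 and 5 genes lie left of it with filled points in all 3 genotypes, whereas Ptger2 and Ptger4 are open.

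Under LPS, BAFF KO macrophages had lower levels of the 3 induced enzymes than WT. Pla2g4a, Ptgs2 and Ptges fell, 7 members were not called and 0 were higher, against 4.35% of all genes lower and 3.99% higher. Mean Pla2g4a was 2.23-fold lower, with a log2 difference of -1.09 (SE 0.14, adjusted p = 0.0046, limma). Pla2g4a passed under all 16 alternatives, at differences of -1.16 to -1.04, with the highest adjusted p just under the threshold. Some of these alternatives left out libraries outside the comparison. Mean Ptgs2 was 1.76-fold lower (log2 -0.80, SE 0.11, adjusted p = 0.0075, limma). Its call was lost without BAFF KO LPS library 1 (adjusted p = 0.063) and without library 2 (0.05, just above the threshold), at log2 differences of -0.75 and -0.85. Mean Ptges was 1.77-fold lower (log2 -0.75, SE 0.17, adjusted p = 0.037, limma), a call that was lost in 10 of 16 alternatives. These included leaving out any 1 of the 6 LPS libraries, where adjusted p was 0.052 to 0.15 and the difference -0.56 to -0.94.

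The other members did not pass in BAFF KO against WT. Hpgd differed by 0.54 (95% interval 0.09 to 0.99, adjusted p = 0.13), Lta4h by 0.27 (0.04 to 0.49, adjusted p = 0.14) and Alox5 by 0.41 (-0.06 to 0.88, adjusted p = 0.25) on the log2 scale by limma. Ptger4 differed by 0.26 (-0.09 to 0.62, adjusted p = 0.33, limma) and Ptger2 by -0.25 (-0.66 to 0.17, adjusted p = 0.44, limma). Ptgs1 differed by -0.26 (-0.74 to 0.22), and Alox5ap by 0.04 (-0.21 to 0.29). Of 11 neutrophil markers, 7 were higher in BAFF KO (summed 2369 to 2746 RPKM against 1390 to 1749), monocyte markers for 2 of 5 (214.6 to 285.8 against 99.9 to 157.1). Skeletal muscle markers were lower for 8 of 9 tested (33.3 to 42.2 against 205 to 297.8). Their part in these results was not tested.

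In APRIL KO under LPS no member passed against WT, where 0.211% of all genes did. By limma 0 of 10 passed, and 2 of 10 had an unadjusted p below 0.05, as had 1539 of the 9934 genes tested. Limma voom on reads recovered from the RPKM called 84 genes, of which 1 was a member. That gene was Ptgs2, whose library means were 1.45-fold higher than in WT without overlap (log2 0.54, 95% interval 0.27 to 0.81). Its adjusted p was 0.15 by limma on RPKM and 0.03 by limma voom. Hpgd differed by 0.53 (0.08 to 0.98, adjusted p = 0.28, limma), above WT in both libraries. Pla2g4a differed by 0.13 (-0.19 to 0.45) and Ptges by 0.08 (-0.32 to 0.47). Skeletal muscle markers were lower in APRIL KO for 3 of 9 tested (summed 23.1 to 53.5 RPKM against 205 to 297.8), where 21 genes were called in all. None of the 8 macrophage or 11 neutrophil markers was called. The part of these markers in the result was not tested.

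Between the knockouts, Pla2g4a, Ptgs2 and Ptges were lower in BAFF KO. Against APRIL KO under LPS 3 members fell and 0 rose, with 3.06% of all genes lower and 2.48% higher. This comparison shares the BAFF KO libraries with that against WT, so it is no separate support. Ptgs2 was 2.55-fold lower (log2 -1.34, SE 0.11, adjusted p = 0.0011, limma) and Pla2g4a 2.47-fold lower (log2 -1.22, SE 0.14, adjusted p = 0.0038, limma). Both were called under all 16 alternatives, Pla2g4a with its highest adjusted p just under the threshold. Ptges was 1.86-fold lower (log2 -0.83, SE 0.17, adjusted p = 0.033, limma). Its call was lost in 8 of 16 alternatives, among them without any 1 of the 4 libraries compared, with adjusted p of 0.1 to 0.19. Between these libraries, 6 of 11 neutrophil markers were called higher in BAFF KO and 1 lower (summed 2369 to 2746 RPKM against 1646 to 1688), and 1 of 5 monocyte markers was higher (214.6 to 285.8 against 123.9 to 139.0). Of the B cell markers, 2 of 3 tested were lower. Of 8 macrophage markers, 1 was higher and 2 lower (summed 5176 to 5211 RPKM against 4527 to 4820). The part of these markers in the result was not tested.

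**Figure D4:**
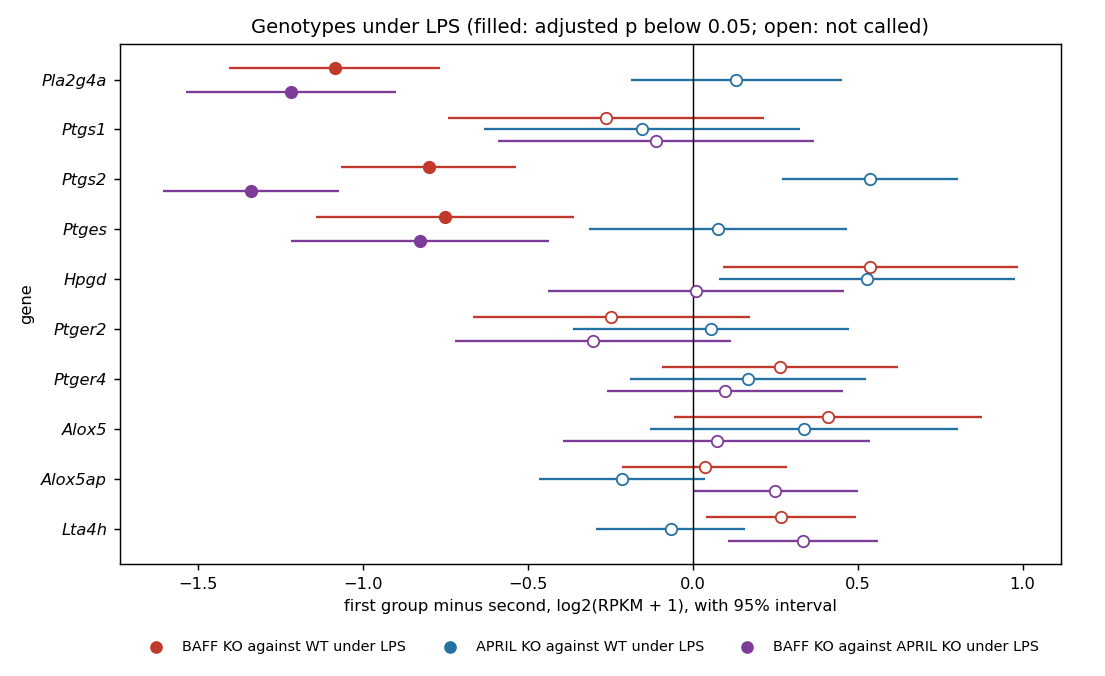
Differences between genotypes under LPS on the log2(RPKM + 1) scale with 95% intervals; filled points passed the adjusted threshold. Pla2g4a, Ptgs2 and Ptges are filled and left of 0 for BAFF KO against WT and against APRIL KO, and no point is filled for APRIL KO against WT.

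Before stimulation the knockouts could be compared with WT by size only, with 1 library each and no test. Ptgs2 was the 1 member at least 2-fold apart on RPKM + 1 with both columns apart, and it was lower in both knockouts. In BAFF KO 0.483% of all genes were higher and 1.33% lower by this rule, and in APRIL KO 0.151% and 1.16%. Ptgs2 had 65 reads in WT, 6 in BAFF KO and 22 in APRIL KO. Per read total, WT was 11.4 times BAFF KO (95% counting interval 4.96 to 32.1) and 3.06 times APRIL KO (1.86 to 5.22). The APRIL KO value lies at the edge of the rule, with a log2 difference of -1.0009, and did not pass after median ratio scaling or in the higher column alone. Skeletal muscle and fibroblast markers were also highest in this WT library, at 201.1 and 129.4 RPKM against 21.6 and 10.4 in BAFF KO and 33.0 and 7.17 in APRIL KO. Their part in the result was not tested. Alox5 was 1.62 times WT in BAFF KO by reads (1.22 to 2.18), Alox5ap 1.27 times (1.17 to 1.39) and Lta4h 1.22 times (1.13 to 1.32), none past the rule. Neutrophil markers summed to 5859 RPKM in this BAFF KO library against 3132 in WT, and monocyte markers to 223.8 against 119.3. Their part in these values was not tested either. These intervals cover counting error only.

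Whether the LPS response itself differed between genotypes was tested as an interaction, which rests on these lone unstimulated libraries. By limma 0 of 10 members passed in BAFF KO minus WT, where 0.443% of all genes did. An unadjusted p below 0.05 was found for 2 members and for 2141 of the 9934 genes tested, so nothing about the set is read from that count. The Ptgs2 response was larger by 0.84 (SE 0.20, adjusted p = 0.094) and the Pla2g4a response smaller, at -0.92 (SE 0.24, adjusted p = 0.11). With a pseudocount of 0.1 the Ptgs2 difference was 2.07 and passed (adjusted p = 0.0082). In APRIL KO minus WT 0 of 10 passed, and 0.0% of all genes, although 337 genes and 1 member had an unadjusted p below 0.05. That member was Ptgs2, at 1.54 (SE 0.20, adjusted p = 0.67, limma). With limma voom 0 members passed in either interaction. Ptgs2 thus reached a lower level under LPS in BAFF KO than in WT, from an unstimulated level that was lower by a larger factor.

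Of 46 further genes of the pathway, 34 were listed and 31 tested. With LPS averaged over genotypes 5 of 31 were higher and 20 lower, against 18.1% and 62.1% of all genes, and after median ratio scaling 7 were higher and 12 lower, against 31.0% and 30.1%. Nothing particular to the list is read from these counts. Among genes of arachidonate release and re-acylation 2 of 11 rose and 9 fell, or 2 and 4 after scaling. The largest falls were in the phospholipase Pla2g15 (log2 -2.10, from 20.1 to 27.2 RPKM unstimulated to 3.84 to 6.09 with LPS) and the diacylglycerol lipase Daglb (-1.43), followed by the prostaglandin reductase Ptgr2 (-1.23). The largest rises were in Fpr2, a formyl peptide receptor that also binds lipoxin (2.19, from 0.908 to 2.23 RPKM to 7.62 to 12.3), the cysteinyl leukotriene receptor Cysltr2 (1.05) and the prostaglandin exporter Abcc4 (0.50). These 6 genes kept their direction and their call after scaling. Of the other prostanoid synthases 0 of 4 rose and 2 fell, the prostaglandin D synthase Hpgds (-1.02) and the thromboxane synthase Tbxas1 (-0.82); after scaling Ptges3 was also higher (0.38).

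In BAFF KO against WT under LPS 3 of these 31 genes were higher and 2 lower, against 3.99% and 4.35% of all genes. Cysltr2 was higher by 0.81 (SE 0.20), Ptgr1, which acts on prostaglandins and leukotriene B, by 0.63 (SE 0.10), and Daglb by 0.58 (SE 0.13) on the log2 scale. Dpep2, a peptidase that processes cysteinyl leukotrienes, was lower at -0.62 (SE 0.08), and Acsl4, which activates arachidonate for re-acylation, at -0.54 (SE 0.11). Ptgr1 stood at 35.6 and 39.3 RPKM in BAFF KO and at 22.4 and 25.1 in WT. Unstimulated it was at 62.0 RPKM in BAFF KO, 28.0 in WT and 23.7 in APRIL KO. Against APRIL KO 3 were higher and 1 lower, where 2.48% and 3.06% of all genes were, with Lpcat1, a lysophospholipid acyltransferase, higher by 0.92 (SE 0.18), Ptgr1 by 0.91 and Daglb by 0.58, and Acsl4 lower at -0.79. In APRIL KO against WT 0 of 31 passed by limma and 0 by limma voom. At unadjusted p below 0.05 there were 6 by limma, with 1539 of the 9934 genes tested. In the BAFF KO interaction 0 of 31 passed by limma (8 unadjusted, with 2141 of the 9934 genes tested). In the APRIL KO interaction 0 passed (0 unadjusted, with 337 of all genes). With limma voom 1, Daglb, passed in BAFF KO and 0 in APRIL KO.

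The genes whose log2 values followed each member most closely over the 9 libraries are given as a description; the libraries share the LPS contrast, so many genes follow the strongly changed members. Closest to Ptgs2 were Atp10a, Ifi208 and Rap2c (Pearson r 0.996 each), and 575 genes had r above 0.95. Closest to Ptges were Il1rn (0.997), Cxcl2 (0.995) and Ccl2 (0.995), and to Pla2g4a Tnip1, U90926 and Tmco3 (0.989 to 0.990). Closest to Ptgs1 were Arrdc2, Ankrd13b and Rnf215, to Hpgd Ccdc97, Carnmt1 and Esyt1, to Alox5ap Tmem59, Cdc34 and Dpy30, and to Lta4h Glo1, Tbc1d17 and Aes (0.988 to 0.997). Alox5 had 11 genes above 0.95, led by Adgrg3 (0.981), Kit (0.969) and Mgst2 (0.964). Ptger2 had 4, led by Sf1, Csnk1d and Rmi1, and Ptger4 had 0, with Prelid2, Gstcd and Cd55 closest (0.898 to 0.918).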

How the data were processed

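Bulk RNA sequencing of 9 libraries (18 columns) was used. The authors deposited RPKM values; per the submitters' processing notes reads were aligned with STAR to mm10, and the sources used here name no counter, annotation or gene filter. The values show 1 extra read on every count, and a constant per gene in place of 0; reads recovered on this basis were whole within 0.01 reads for 100% of values and summed to the totals of 18 of 18 columns. The 2 columns of a library were averaged: they differed by a mean chi-square of 1.58 to 2.13 per gene. Between the deeper columns of 2 libraries of a group it was 4.79 to 5.80. The first range sets a shallower column against a deeper one, and chi-square grows with depth, so the 2 ranges are not on a like basis. Symbols came from GENCODE M21. Genes whose mean reached 1 RPKM in 1 or more groups (9934) were tested on log2(RPKM + 1) with limma 3.58.1 in R 4.3.3 (6 group means, 3 residual degrees of freedom, eBayes with trend, 2-sided, Benjamini-Hochberg over all genes, threshold 0.05). An arm of 1 library takes its spread from the other groups, which is an assumption. A fold change on this scale understates that of low genes. The code was tested on simulated data. The members, the further pathway genes and the markers were chosen with earlier results of these data known. All members were named, though not each in every comparison. Of the further genes, up to 3 called rises and 3 falls per comparison were named. For each member the 3 tested genes of highest correlation were named.

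Alternatives were median ratio scaling, a pseudocount of 0.1, no filter, either column alone, the replicate block, each library left out, and limma voom on recovered reads, which was chosen after seeing the data.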

Additional observations from a re-analysis of the deposited data

Results flagged for a closer look

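The Ptger4 response to LPS was of opposite direction in the knockouts. Both BAFF KO LPS libraries (1.22 and 0.832 RPKM) were above the unstimulated one (0.611), and both APRIL KO LPS libraries (0.948 and 0.819) were below theirs (1.32). The responses differed by 0.62 on the log2(RPKM + 1) scale. This difference was not tested, the values rest on 21 to 46 reads per library, and neither response passed on its own (adjusted p = 0.17 and 0.19, limma). After median ratio scaling the APRIL KO response was -0.02. Ptger4 entered the test only through unstimulated APRIL KO and BAFF KO with LPS, where it was high. Opposite directions were therefore favoured by the filter, and nothing is read from them.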

How the results depend on the processing

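No call of a member reversed in direction under any alternative run. In LPS in WT, 3972 genes were called after median ratio scaling against 5992. In BAFF KO against WT under LPS, 227 genes were called with the lower column alone against 828, and 215 to 845 with 1 library left out; members lower numbered 1 to 3 there. In BAFF KO against APRIL KO the count was 164 with the lower column and 837 with limma voom, against 550, and 99 to 559 with a library left out. In APRIL KO against WT it was 5 without the filter, 0 with the lower column, 84 with limma voom (and 1 member higher), against 21, and 1 to 28 with a library left out. In the BAFF KO interaction it was 15 without the filter, 2 and 26 with the lower and higher column and 600 with limma voom, against 44, and 0 to 46 with a library left out; with a pseudocount of 0.1, 1 member was higher. In the APRIL KO interaction it was 1 with the lower column, and 0 to 1 with a library left out. By size, unstimulated BAFF KO had 464 genes with a pseudocount of 0.1 and 350 with the lower column, against 180, and APRIL KO 335 and 263 against 130. Members lower in APRIL KO numbered 0 after scaling and 0 with the higher column. The cause was not tested.

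With the replicate block, the BAFF KO interaction called 15 genes, BAFF KO against WT 564, and BAFF KO against APRIL KO 411. Deviations of same-numbered LPS libraries correlated at -0.18, -0.102 and 0.12, so no pairing by number was seen. With 2 LPS libraries a group, a weak pairing could be missed. The Ptges calls in both BAFF KO comparisons (adjusted p 0.065 and 0.06), the averaged Ptger2 call (0.072) and the Alox5 call in APRIL KO (0.069) were lost under the block. The Ptgs1 call in WT was lost with the lower column alone (adjusted p = 0.069). Ptger2 passed in WT without WT LPS library 1 (0.045) and in APRIL KO without either WT LPS library (0.024 each, limma). edgeR on recovered reads was planned and not run. Ptger2 fell under the filter in some alternatives and has no value there. Depth limits members with few reads in a library, such as the receptors (2 to 46 reads), Hpgd under LPS (5 to 17), Ptges unstimulated (10 to 18), Ptgs2 in unstimulated knockouts (6 and 22), and Alox5 (35 to 75) and Ptgs1 (40 to 67) under LPS.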
